A study of Mus musculus with 8 samples.

Results

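Sox9, Sox4, Pax2, Pax8, Lhx1, Cd24a, Prom1, Klf6 and Myc were examined in mouse kidney as 9 genes known for roles in the development or repair of renal tubules. They were chosen by name from the 54251 genes of the deposited expression table, and all 9 were found there and passed the minimum mean of 0.5 FPKM for testing. FPKM counts sequenced fragments per kilobase of a gene, relative to library size. The kidneys came from adult male mice of strain C57BL/6, and 8 RNA-seq libraries were made, 2 for each of 4 groups, each from the pooled RNA of 3 mice. The groups were KO_IR, G9a knockout mice after renal ischemia-reperfusion (IR), WT_IR, wild-type mice after IR, KO, G9a knockout mice with no IR in their labels, and WT, wild-type mice with no IR in their labels. In IR the pedicle of the left kidney was clamped for 45 min, the blood flow was restored, and kidneys were taken at day 3. The knockout is described as specific to the kidney, the driver of the deletion is not named in the sources used here, and the labels do not say which kidney, or what surgery, the KO and WT libraries come from. G9a, encoded by Ehmt2, is a histone lysine methyltransferase that marks repressed chromatin.

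The nephron forms from intermediate mesoderm under the control of transcription factors such as PAX2, PAX8 and LHX1. After acute injury, surviving tubular cells lose mature features, express some genes of the embryonic tubule, divide and differentiate again. SOX9 is known to be switched on in such regenerating tubular cells, while CD24 and prominin 1 mark scattered tubular cells with progenitor-like features in the human kidney. KLF6 and MYC are transcription factors that respond within hours to injury or growth signals in many tissues.

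The libraries held 14965670 to 17596690 fragments in genes, recovered from the deposited values, so a gene of 1 kb with 3 fragments would read 0.148 to 0.206 FPKM. Ehmt2 had 27.3 and 26.3 FPKM in KO_IR, 34.5 and 35.8 FPKM in WT_IR, 28.1 and 26.4 FPKM in KO and 33.4 and 30.3 FPKM in WT kidneys. Its level was lower in both knockout groups without overlap, by -0.22 ± 0.083 (log2, SE) in KO minus WT (limma adjusted p = 0.370) and by -0.38 ± 0.083 in KO_IR minus WT_IR (limma adjusted p = 0.0140). After IR the threshold of 0.05 was missed without WT_IR replicate 1 (-0.41), without WT_IR replicate 2 (-0.35) and without KO_IR replicate 2 (-0.35). A value for the whole gene in whole kidney does not check the deleted part. Tubular identity was present in every library, since the summed level of Cdh16, Cdh1 and Epcam was 416 to 485 FPKM in KO_IR, 355 to 373 FPKM in WT_IR, 428 to 506 FPKM in KO and 444 to 557 FPKM in WT kidneys.

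Promoter sequences, from 250 bases before to 50 bases after a start site, were taken from RefSeq for GRCm38.p6, which held 9 promoters of 6 of the 9 genes. Those of Sox4, Klf6 and Lhx1 are shown as examples of genes with a higher (Sox4 and Klf6) or a lower (Lhx1) RNA level in WT_IR than in WT kidneys. They are written 5′ to 3′ on the strand of the gene. Capitals mark every match, on either strand, to the AP-1 motif TGANTCA, the E-box motif CACGTG, the TEAD motif GGAATG, the STAT motif TTCNNNGAA, the CRE motif TGACGTCA, the GC box motif GGGCGG and the TATA box motif TATAAA.
Sox4, chr13:28953650-28953949, minus strand: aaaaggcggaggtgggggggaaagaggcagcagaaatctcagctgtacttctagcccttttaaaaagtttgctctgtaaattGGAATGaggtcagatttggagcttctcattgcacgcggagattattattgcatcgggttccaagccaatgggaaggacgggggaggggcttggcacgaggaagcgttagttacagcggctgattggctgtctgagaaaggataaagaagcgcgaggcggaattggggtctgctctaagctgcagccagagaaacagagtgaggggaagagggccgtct
Klf6, chr13:5861239-5861538, plus strand: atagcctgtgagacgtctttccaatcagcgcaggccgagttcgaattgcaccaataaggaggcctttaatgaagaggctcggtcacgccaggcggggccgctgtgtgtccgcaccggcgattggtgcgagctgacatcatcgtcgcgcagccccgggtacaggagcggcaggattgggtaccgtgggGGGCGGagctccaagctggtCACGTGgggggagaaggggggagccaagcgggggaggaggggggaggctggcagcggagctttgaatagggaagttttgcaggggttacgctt
Lhx1, chr11:84525485-84525784, minus strand: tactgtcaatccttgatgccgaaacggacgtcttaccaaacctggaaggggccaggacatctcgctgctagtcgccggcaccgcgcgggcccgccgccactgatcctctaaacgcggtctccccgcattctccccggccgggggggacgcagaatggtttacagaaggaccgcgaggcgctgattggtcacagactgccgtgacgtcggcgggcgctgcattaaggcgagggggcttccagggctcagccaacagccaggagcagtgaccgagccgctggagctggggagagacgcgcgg
The Sox4 window held 1 TEAD match and a GC content of 52.0%. The Klf6 window held 1 GC box and 1 E-box match and a GC content of 63.0%. The Lhx1 window held no match to these motifs, a GC content of 65.7% and 31 CpG dinucleotides, against 12 in the Sox4 and 23 in the Klf6 window. Pax8 was also called higher in WT_IR minus WT, and its window, not shown, held 1 GC box match and a GC content of 59.3%. Among all 32851 promoters of this length, 14.7% held the TEAD motif, 35.7% the GC box and 7.15% the E-box, and the medians were a GC content of 52.7% and 7 CpG dinucleotides. These matches describe the letters of the windows, and binding was not measured.

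After IR in wild-type mice, 6 of the 9 genes were higher, 1 was lower and 2 did not pass the test. Of all 15607 genes tested, 42.3% were called in WT_IR minus WT, 19.1% higher and 23.2% lower. The median log2 difference of the 9 genes was 1.35, against -0.023 for all genes tested. In the knockout, 0 of the 9 genes were called in KO_IR minus KO by limma, and 0 by voom on recovered fragments. At an unadjusted p under 0.05, 4 of them passed, as did 1991 of the 15607 genes tested. At the adjusted threshold 1.03% of all genes were called, 0.948% higher and 0.0769% lower. Between the genotypes after IR, 6 genes were lower and 1 was higher in KO_IR than in WT_IR kidneys. The background in KO_IR minus WT_IR was 30.0% of all genes, 16.6% higher and 13.5% lower. Without IR, 0 of the 9 genes were called in KO minus WT by limma or by voom. Of all genes 0.218% were called, 0.16% higher and 0.0577% lower. An unadjusted p under 0.05 was reached by 0 of the 9 genes and by 1854 of the 15607 genes tested. The libraries did not overlap for 9 of the 9 genes in WT_IR against WT, where this held for 72.1% of all genes, and for 7 in KO_IR against WT_IR, where it held for 67.1%. They did not overlap for 6 in KO_IR against KO, beside 43.3% of all genes, and for 2 in KO against WT, Pax2 and Prom1, beside 43.0%. These comparisons share libraries, so their directions are not independent of each other.

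**Figure D1:**
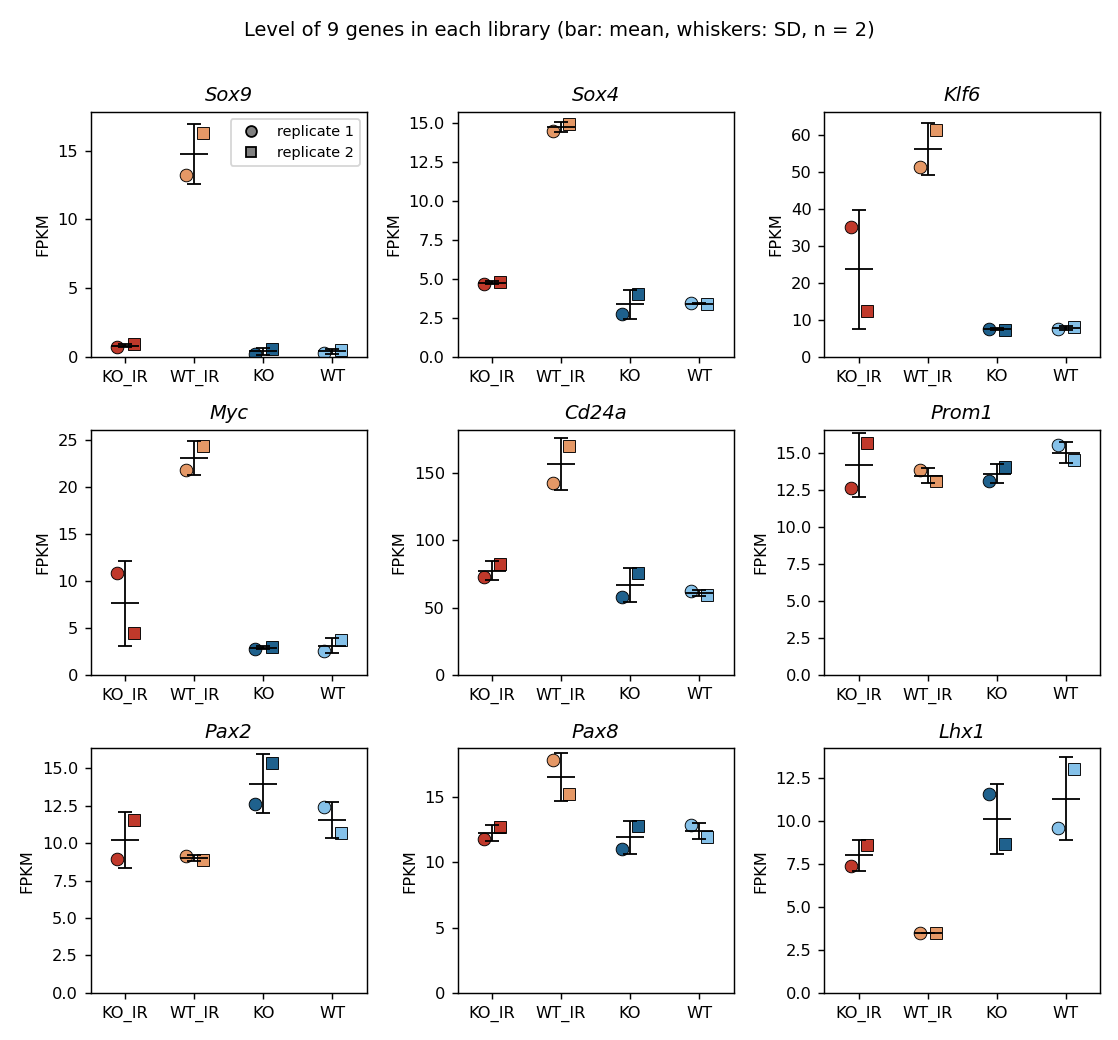
Level in FPKM (vertical axes, each from 0) of each of the 9 genes in KO_IR, WT_IR, KO and WT kidneys. Points are libraries, bars are means and whiskers are SD of 2 libraries. Sox9, Sox4, Klf6, Myc and Cd24a stand highest in both WT_IR libraries, Lhx1 stands lowest there, and the KO_IR libraries of Klf6 and Myc are far apart.

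Sox9 encodes an HMG-box transcription factor of cartilage, testis and tubular repair, and lies at chr11:112782224-112787760 on GRCm38. Its level was 0.742 and 0.899 FPKM in KO_IR, 13.2 and 16.3 FPKM in WT_IR, 0.232 and 0.588 FPKM in KO and 0.254 and 0.516 FPKM in WT kidneys. Sox9 thus stood at a low level in every group except WT_IR, whose libraries were both far above all others. The values rest on 52 and 58 fragments in KO_IR, 965 and 1370 in WT_IR, 14 and 39 in KO and 17 and 33 in WT libraries. The mean of WT_IR, 14.7 ± 2.20 FPKM (SD, n = 2), was 38.3-fold that of WT, 0.385 ± 0.186 FPKM. The log2 difference, taken on log2(FPKM + 1) here and below, was 3.51 ± 0.18 (SE) with a limma adjusted p of 5.08e-05. This scale understates the change of a low gene, and voom on recovered fragments gave 5.68. In the knockout the KO_IR mean was 2.00-fold the KO mean, without overlap of the libraries, and limma gave 0.38 ± 0.18 with an adjusted p of 0.438. KO_IR reached 5.56% of WT_IR, with a log2 difference of -3.11 ± 0.18 (limma adjusted p = 0.000256). The order of group means from low to high was WT, KO, KO_IR and WT_IR, and WT and KO overlapped.

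Sox4, at chr13:28948919-28953713, encodes an HMG-box factor with roles in nephron formation. It had 4.68 and 4.82 FPKM in KO_IR, 14.5 and 14.97 FPKM in WT_IR, 2.72 and 4.005 FPKM in KO and 3.42 and 3.39 FPKM in WT kidneys. As for Sox9, both WT_IR libraries lay above all others, but Sox4 was present at several FPKM in uninjured kidneys too. WT_IR exceeded WT 4.33-fold, with a log2 difference of 1.84 ± 0.14 (limma adjusted p = 0.000123). KO_IR was 32.2% of WT_IR, with a log2 difference of -1.45 ± 0.14 (limma adjusted p = 0.00069). Within the knockout, KO_IR was 1.41-fold KO without overlap of the libraries, and limma gave 0.41 ± 0.14 with an adjusted p of 0.268. The order from low to high was KO, WT, KO_IR and WT_IR, and the KO and WT libraries overlapped.

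The response to IR of both SOX genes differed between the genotypes when the difference itself was tested. The IR effect in the knockout minus that in wild type was -3.13 ± 0.25 for Sox9 (limma adjusted p = 0.00325) and -1.42 ± 0.20 for Sox4 (limma adjusted p = 0.00658). In this interaction 4 of the 9 genes were called, 3 lower and 1 higher, against a background of 16.3% of all genes, 6.68% lower and 9.62% higher. The Sox9 calls in WT_IR minus WT, KO_IR minus WT_IR and the interaction, and those of Sox4, were kept under each alternative in which the gene was tested.

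Of 17 other SOX genes, 6 were expressed enough to be tested, and the highest value among the other 11 was 0.803 FPKM. In WT_IR minus WT, 0 were higher and 2 were lower, Sox6 by -0.46 (limma adjusted p = 0.0259) and Sox13 by -0.32 (limma adjusted p = 0.0312). The 2 are 33.3% of the list, beside 23.2% of all genes called lower, and 19.1% were called higher. Each of the Sox6 and Sox13 calls ended in 6 alternatives. Sox6 was at -0.11 on a TPM scale and -0.28 with voom, or -0.54 and -0.61 relative to the median of all genes. It also missed the threshold without either WT library (-0.47 and -0.46) or WT_IR replicate 2 (-0.33). Sox13 was at 0.16 on a TPM scale and 0.013 with voom, or -0.27 and -0.31 relative to the median of all genes, and missed it without either WT library (-0.35 and -0.29) or WT_IR replicate 1 (-0.25). Sox18, an endothelial factor, had a difference of 0.53 with a limma adjusted p of 0.0668. None of the 6 was called between KO_IR and WT_IR by limma, beside 30.0% of all genes. The list median was 0.15 against -0.0077 for all genes.

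**Figure D2:**
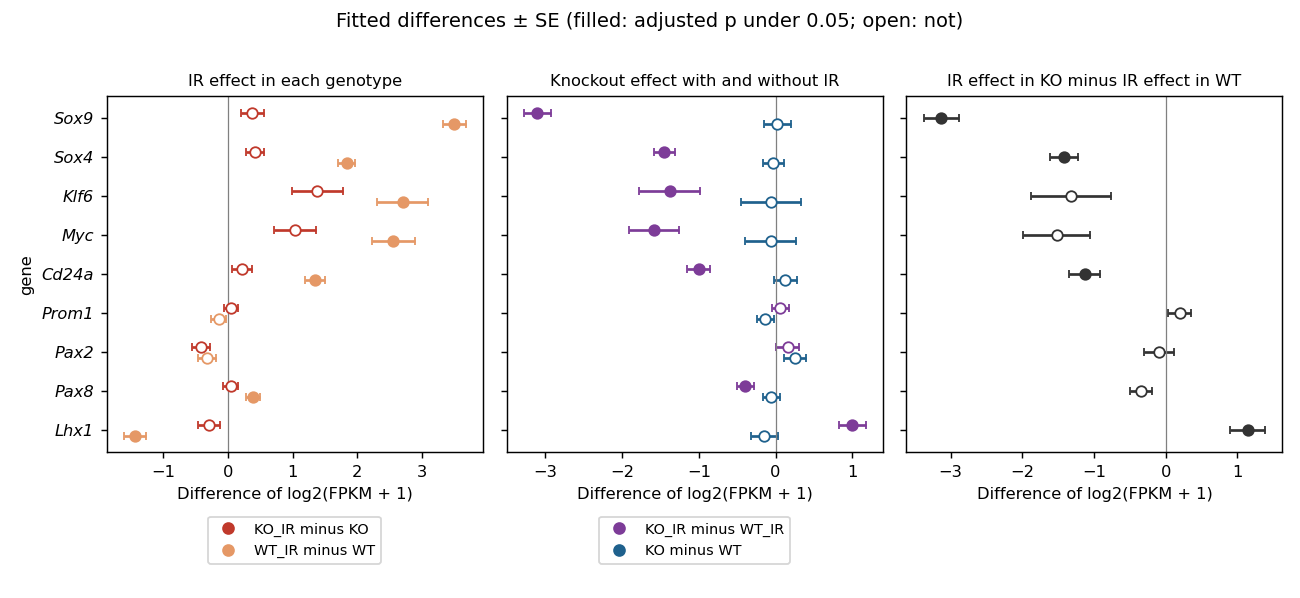
Fitted differences of log2(FPKM + 1) with their SE (horizontal axes) for the 9 genes. The left panel gives IR effects in KO and WT, the middle panel knockout effects with and without IR, and the right panel the difference of the IR effects; filled points have an adjusted p under 0.05. Sox9, Sox4, Cd24a and Lhx1 are filled in the right panel, and no knockout effect without IR is filled.

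Klf6, at chr13:5861482-5870394, encodes a zinc finger factor induced by tissue injury. Its level was 35.1 and 12.4 FPKM in KO_IR, 51.3 and 61.4 FPKM in WT_IR, 7.64 and 7.21 FPKM in KO and 7.45 and 8.09 FPKM in WT kidneys. The libraries of each IR group lay above both uninjured groups, while the KO_IR libraries differed from each other by more than any other pair of replicates of this gene. WT_IR was 7.25-fold WT, with a log2 difference of 2.70 ± 0.40 (limma adjusted p = 0.00158). KO_IR was 42.1% of WT_IR, with a log2 difference of -1.38 ± 0.40 (limma adjusted p = 0.0369). This last call was kept in 9 of 17 alternatives, with adjusted p between 0.00182 and 0.158. It was lost without either library of WT, KO or WT_IR, where the difference lay between -1.51 and -1.25, in a fit of these groups alone and with no filter on low values. It was kept without KO_IR replicate 1, at -2.10, and without KO_IR replicate 2, at -0.66. KO_IR was 3.19-fold KO, with a limma adjusted p of 0.193.

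Myc, at chr15:61985391-61990374, encodes a transcription factor of growth and ribosome production. It had 10.8 and 4.43 FPKM in KO_IR, 21.8 and 24.4 FPKM in WT_IR, 2.80 and 3.01 FPKM in KO and 2.52 and 3.71 FPKM in WT kidneys. The pattern over the libraries was that of Klf6, with the KO_IR libraries apart and between the WT_IR and uninjured levels. WT_IR was 7.40-fold WT, with a log2 difference of 2.56 ± 0.33 (limma adjusted p = 0.000923). KO_IR was 33.1% of WT_IR, with a log2 difference of -1.58 ± 0.33 (limma adjusted p = 0.0120). This call ended without WT_IR replicate 1 (-1.66, adjusted p = 0.0512) or WT_IR replicate 2 (-1.51, adjusted p = 0.0695) and held in the other 15 of 17 alternatives, with limma adjusted p over all of them between 0.000539 and 0.0695. The difference was -2.15 without KO_IR replicate 1 and -1.02 without KO_IR replicate 2. For both genes the group means ran from low to high as KO, WT, KO_IR and WT_IR, and KO and WT overlapped.

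Immediate early genes, transcribed within minutes of a stimulus, were higher in KO_IR replicate 1 than in KO_IR replicate 2, as Klf6 and Myc were. They were picked with their values in view, and no test was run on them. The summed level of Atf3, Egr1, Fos, Fosb, Ier2, Ier3, Jun and Junb was 356 FPKM in KO_IR replicate 1 and 77.6 FPKM in KO_IR replicate 2, against 206 and 236 FPKM in WT_IR. It was 65.4 and 58.7 FPKM in KO and 79.6 and 57.5 FPKM in WT kidneys. Atf3, a stress factor, had 60.2 and 3.72 FPKM in KO_IR and 13.8 and 19.0 FPKM in WT_IR kidneys. Egr1, Fos, Ier2, Ier3 and Jun were also higher in KO_IR replicate 1 than in both WT_IR libraries. Junb was not, with 42.2 and 19.0 FPKM in KO_IR and 65.5 and 71.5 FPKM in WT_IR kidneys. Fosb had 0.992 and 0.113 FPKM in KO_IR and 0.371 and 1.13 FPKM in WT_IR kidneys. The part of these genes' state in the values of Klf6 and Myc was not tested. Without KO_IR replicate 2, the difference in KO_IR minus KO was 2.10 for Klf6 (limma adjusted p = 0.0101) and 1.60 for Myc (limma adjusted p = 0.0369), and both were called. Without KO_IR replicate 1 it was 0.67 for Klf6 and 0.48 for Myc. Over 17 alternatives the adjusted p of limma ran between 0.0101 and 0.543 for Klf6 and between 0.0369 and 0.647 for Myc.

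The test of whether the IR effect on these genes differed between genotypes gave different calls under different settings. The interaction was -1.32 ± 0.56 for Klf6 (limma adjusted p = 0.162) and -1.52 ± 0.47 for Myc (limma adjusted p = 0.0710). Klf6 was called in 3 of 16 alternatives and Myc in 6 of 16. Without KO_IR replicate 1 both passed, at -2.04 (adjusted p = 0.0103) for Klf6 and at -2.08 (adjusted p = 0.0123) for Myc in limma. Without KO_IR replicate 2 Myc passed as well, at -0.96 (limma adjusted p = 0.0488), while Klf6 was at -0.61 and did not (limma adjusted p = 0.0674). Over the alternatives limma adjusted p ran between 0.0103 and 0.323 for Klf6 and between 0.0123 and 0.188 for Myc.

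**Figure D3:**
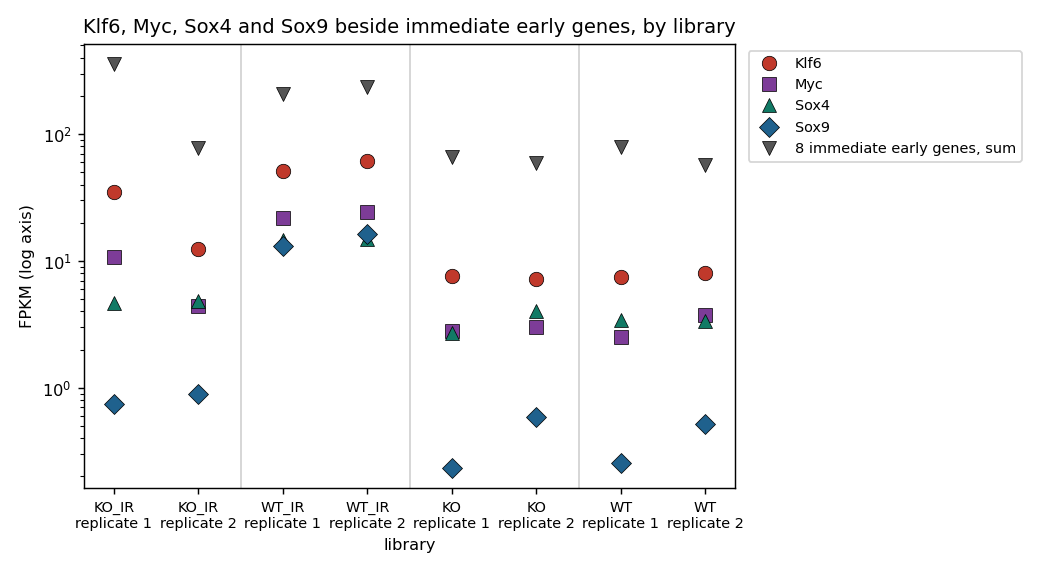
Levels of Klf6, Myc, Sox4, Sox9 and the summed level of 8 immediate early genes in each library (vertical axis, FPKM, log axis), with libraries ordered KO_IR, WT_IR, KO and WT. The immediate early sum is highest in KO_IR replicate 1, at 356 FPKM, where Klf6 and Myc also exceed KO_IR replicate 2, while Sox9 and Sox4 differ little between these libraries.

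Of 16 other KLF genes 13 were tested, and in WT_IR minus WT 5 were higher, 3 were lower and 5 were not called. These are 38.5% and 23.1% of the list, beside 19.1% and 23.2% of all genes, and over the alternatives 4 to 11 KLF genes were called. Klf4 (1.20, limma adjusted p = 0.00146) and Klf10 (1.22, limma adjusted p = 0.00433) rose. Klf15, known for control of metabolism and of podocyte differentiation, fell by 2.13 on the log2 scale (limma adjusted p = 0.00183), and Klf1 (-1.07) and Klf9 (-0.81) fell too. In KO_IR minus WT_IR 2 were higher, Klf15 by 2.16 and Klf1 by 0.94, and 3 were lower, among them Klf10 at -1.07 and Klf4 at -0.97. The shares were 15.4% and 23.1% of the list, beside 16.6% and 13.5% of all genes. Over the alternatives 3 to 10 were called.

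All 12 genes of the MYC network, the partners and antagonists of MYC, were tested. Against WT, 3 were higher in WT_IR, with Mycl at 1.35 and Mxd3 at 0.78, and 3 were lower, with Mlx at -0.69 and Mlxipl, the carbohydrate response factor ChREBP, at -0.71. Both shares, 25.0% of the list, lay near those of all genes (19.1% higher and 23.2% lower). In KO_IR minus WT_IR 2 were higher, Mlx at 0.67 and Mlxipl at 0.39, and 3 were lower, with Mycl at -0.99 and Mxd3 at -0.85. They make up 16.7% and 25.0% of the list, beside 16.6% and 13.5% of all genes. The Mlxipl call ended in 5 alternatives, on a TPM scale (0.038), with voom (0.15) and without either WT_IR library (0.36 and 0.42) or KO_IR replicate 1 (0.30). Relative to the median of all genes, Mlxipl was at 0.37 on a TPM scale and 0.41 with voom. The Mycl call ended in 4 alternatives, with no filter and without WT_IR replicate 2 (-0.67), KO_IR replicate 1 (-0.89) or KO_IR replicate 2 (-1.08). Of 22 known MYC target genes 10 were higher and 2 were lower in WT_IR than in WT kidneys, or 45.5% and 9.09% of the list beside 19.1% and 23.2% of all genes. The nucleolar genes Npm1 (0.71), Nop56 (0.49) and Ppan (0.43) rose, whereas Odc1, of polyamine synthesis, fell by 1.23 and Ldha, of lactate production, fell by 0.44 on the log2 scale. Against WT_IR, 1 target was higher in KO_IR, Odc1 at 1.19 (limma adjusted p = 0.000497), and 11 were lower, with Npm1 at -0.57, Nop56 at -0.51 and Ppan at -0.47. These counts are out of 22 targets, beside 16.6% of all genes called higher and 13.5% called lower. The median of the targets was 0.22 in WT_IR minus WT and -0.31 in KO_IR minus WT_IR, against -0.023 and -0.0077 for all genes. Over the alternatives the count of targets called ran between 4 and 20 in WT_IR minus WT and between 2 and 21 in KO_IR minus WT_IR. Ldha was at 0.069 in WT_IR minus WT on a TPM scale, and at -0.36 there relative to the median of all genes. In KO_IR minus KO and KO minus WT limma called 0 genes of the SOX, KLF and MYC lists.

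Pax2, at chr19:44756045-44837871, and Pax8, at chr2:24420560-24475599, encode paired box factors of the nephric lineage that persist in adult tubules. Pax2 had 8.91 and 11.5 FPKM in KO_IR, 9.14 and 8.85 FPKM in WT_IR, 12.6 and 15.4 FPKM in KO and 12.4 and 10.7 FPKM in WT kidneys. The values ran from 8.85 to 15.4 FPKM over all libraries, and no comparison passed the threshold. The lowest adjusted p was that of WT_IR minus WT, at -0.32 ± 0.15 (limma adjusted p = 0.117). This difference was 0.15 on a TPM scale and 0.0020 with voom. Relative to the median of all genes, which these scalings also raise, it was -0.30 as deposited, -0.28 on a TPM scale and -0.33 with voom. KO_IR minus KO was larger, at -0.42 ± 0.15 (limma adjusted p = 0.287). Its unadjusted limma p was 0.0232, against 0.0606 in WT_IR minus WT. KO_IR minus WT_IR was 0.16 ± 0.15 (limma adjusted p = 0.459), which was -0.18 on a TPM scale and 0.15 there relative to the median of all genes. The antisense gene 1700039E22Rik overlaps Pax2 and had 1.17 to 2.58 FPKM over the libraries. The sources used here do not say that counting used strand, so part of its reads cannot be told apart from those of Pax2.

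Pax8 had 11.8 and 12.7 FPKM in KO_IR, 17.8 and 15.2 FPKM in WT_IR, 11.0 and 12.8 FPKM in KO and 12.8 and 11.9 FPKM in WT kidneys. Both WT_IR libraries lay above the other 6, by a small margin compared with Sox4. WT_IR was 1.33-fold WT, with a log2 difference of 0.38 ± 0.11 (limma adjusted p = 0.0285). KO_IR minus WT_IR was -0.40 ± 0.11 (limma adjusted p = 0.0335). The WT_IR minus WT call ended in 4 of 17 alternatives. Among them were the fits without either WT library (0.43 without replicate 1 and 0.33 without replicate 2) and without WT_IR replicate 1 (0.28). The KO_IR minus WT_IR call ended in 6 of 17. Among these were the fits without WT_IR replicate 1 (-0.29) and without KO_IR replicate 1 (-0.35) or 2 (-0.45). Over all alternatives the limma adjusted p ran between 0.000506 and 0.158 for WT_IR minus WT and between 0.00175 and 0.172 for KO_IR minus WT_IR. The interaction of -0.34 ± 0.16 was not called (limma adjusted p = 0.191) except on a TPM scale (-0.79) and with voom (-0.65). Relative to the median of all genes, the interaction was -0.35 as deposited, -0.40 on a TPM scale and -0.38 with voom. The other 7 PAX genes were too low to test, with a highest value of 0.195 FPKM.

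Lhx1, at chr11:84518284-84525535, encodes a LIM homeodomain factor needed for the formation and patterning of the nephron. It went the opposite way to the SOX genes, with 7.36 and 8.62 FPKM in KO_IR, 3.48 and 3.48 FPKM in WT_IR, 11.5 and 8.67 FPKM in KO and 9.58 and 13.0 FPKM in WT kidneys. Both WT_IR libraries were below all others, and KO_IR lay between WT_IR and the uninjured groups, touching none of their libraries. WT_IR was 30.9% of WT, with a log2 difference of -1.44 ± 0.17 (limma adjusted p = 0.000666). KO_IR was 2.29-fold WT_IR, with a log2 difference of 1.00 ± 0.17 (limma adjusted p = 0.00572). KO_IR minus KO was -0.30 ± 0.17 (limma adjusted p = 0.554). The interaction was 1.15 ± 0.24 (limma adjusted p = 0.0225) and was kept in 9 of 16 alternatives, with adjusted p between 0.0121 and 0.0718. It ended without replicate 2 of WT (0.94), KO (0.96), KO_IR (1.04) or WT_IR (1.14), without replicate 1 of WT_IR (1.15), with no filter on low values (1.15) and on a TPM scale (0.86). Relative to the median of all genes, the interaction was 1.14 as deposited and 1.25 on a TPM scale. The order of means from low to high was WT_IR, KO_IR, KO and WT, and KO and WT overlapped.

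Of 21 other LIM homeobox genes, LIM-only genes and cofactors 10 were tested. In WT_IR minus WT 3 were higher, the cofactors Ssbp4 (1.10) and Ldb2 (0.90) and the LIM-only gene Lmo2 (0.92), and 1 was lower, Lmo4 (-0.89). The 3 are 30.0% of the list, beside 19.1% of all genes called higher, and 23.2% were called lower. The Lmo2 call ended with no filter on low values, with WT_IR replicate 1 left out (0.66) and with WT replicate 2 left out (0.75). Of the same genes 1 was higher in KO_IR minus WT_IR, Lmo4 (0.68), and 2 were lower, Ssbp4 (-0.92) and Ldb2 (-0.64). With 10 genes tested, these counts lay near the shares of all genes, 16.6% called higher and 13.5% called lower. The Ldb2 call ended with no filter and without either KO_IR library (-0.71 and -0.57) or either WT_IR library (-0.69 and -0.60). A wider list of nephron development genes held 45 members, 35 of them tested. In WT_IR minus WT 4 were higher, with Hoxa11 at 0.91, and 9 were lower, with the growth factor Bmp7 at -1.34, Irx1 at -1.21, the R-spondin receptor Lgr4 at -0.88 and Pou3f3 at -0.61. These are 11.4% and 25.7% of the list, beside 19.1% and 23.2% of all genes. The Pou3f3 call ended on a TPM scale (-0.12), with voom (-0.28) and without WT replicate 1 (-0.48) or WT_IR replicate 1 (-0.52). Relative to the median of all genes, Pou3f3 was at -0.55 on a TPM scale and -0.60 with voom. In KO_IR minus WT_IR 4 were higher, Bmp7 at 1.23, Irx1 at 0.80, Pou3f3 at 0.55 and Lgr4 at 0.33, and 0 were lower. The 4 are 11.4% of the list, beside 16.6% of all genes called higher, and 13.5% were called lower. The count of genes called ran between 1 and 10 over the alternatives. With voom the calls of Pou3f3 (0.33) and Lgr4 (0.088) ended, at 0.59 and 0.35 relative to the median of all genes. On a TPM scale the differences were 0.48 for Irx1, 0.21 for Pou3f3 and -0.022 for Lgr4, none of them called, and relative to the median of all genes they were 0.82, 0.55 and 0.31. The calls of these 3 genes also ended without KO_IR replicate 2 (0.70, 0.46 and 0.32, in the same order of genes), WT_IR replicate 1 (0.73, 0.47 and 0.34) or WT_IR replicate 2 (0.88, 0.63 and 0.32), and that of Lgr4 without KO_IR replicate 1 (0.33). Six2, Cited1, Gdnf and Ret, which act in the nephron progenitors and ureteric bud of the embryo, were among the 10 genes too low to test, none above 0.651 FPKM in a library.

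Cd24a, at chr10:43578284-43584265, encodes a lipid-anchored surface glycoprotein of epithelial and blood cells. It had the highest FPKM of the 9 genes in every group, with 72.6 and 82.3 FPKM in KO_IR, 143 and 170 FPKM in WT_IR, 57.9 and 75.8 FPKM in KO and 62.2 and 59.0 FPKM in WT kidneys. The WT_IR libraries lay above the rest, and the KO_IR and KO libraries overlapped. WT_IR was 2.58-fold WT, with a log2 difference of 1.35 ± 0.15 (limma adjusted p = 0.000493). KO_IR was 49.5% of WT_IR, with a log2 difference of -1.002 ± 0.15 (limma adjusted p = 0.00331). KO_IR minus KO was 0.22 ± 0.15 (limma adjusted p = 0.622). The interaction was -1.13 ± 0.21 (limma adjusted p = 0.0151) and ended only without WT_IR replicate 2, at -1.005 with an adjusted p of 0.0561, among 16 alternatives with limma adjusted p between 0.00221 and 0.0561.

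Prom1, at chr5:43993620-44102032, encodes the membrane glycoprotein prominin 1, also called CD133. It had 12.6 and 15.7 FPKM in KO_IR, 13.8 and 13.1 FPKM in WT_IR, 13.1 and 14.0 FPKM in KO and 15.5 and 14.5 FPKM in WT kidneys. Its groups overlapped, except that the WT_IR libraries and the KO libraries each lay below both WT libraries. WT_IR minus WT was -0.15 ± 0.11 (limma adjusted p = 0.338), and 0.35 on a TPM scale and 0.20 with voom. KO_IR minus WT_IR was 0.06 ± 0.11 (limma adjusted p = 0.723), and -0.29 on a TPM scale and -0.19 with voom. Relative to the median of all genes, WT_IR minus WT was -0.12 as deposited, -0.082 on a TPM scale and -0.13 with voom, and KO_IR minus WT_IR was 0.068, 0.045 and 0.075. Cd24a and Prom1, which are used together as markers in the human kidney, thus had different values in WT_IR minus WT, but the difference between the genes was not tested.

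Among 13 genes of progenitor-like and dedifferentiated tubular cells, all tested, 9 were higher and 1 was lower in WT_IR than in WT kidneys, or 69.2% and 7.69% of the list beside 19.1% and 23.2% of all genes. Vcam1, an adhesion molecule, rose by 5.10, Cd44, a hyaluronan receptor, by 3.82, Anxa3 by 2.51 and Vim, of intermediate filaments, by 2.37 on the log2 scale. Prom2, a homologue of Prom1, fell by 1.21 on the log2 scale. In KO_IR minus KO 4 were higher and 0 were lower, against 0.948% of all genes called higher. These were Vcam1 at 1.85 (limma adjusted p = 0.0201), Cd44 at 1.20 (limma adjusted p = 0.0292), Anxa3 at 0.90 (limma adjusted p = 0.0312) and Vim at 1.21 (limma adjusted p = 0.0474). Each of these 4 calls ended in 7 to 11 alternatives, a fit of KO_IR and KO alone among them. Compared with WT_IR, 6 were lower in KO_IR, with Vcam1 at -3.00, Cd44 at -2.44, Anxa3 at -1.43 and Vim at -1.06, and 1 was higher, Prom2 at 1.05. The 6 and the 1 are 46.2% and 7.69% of the list, beside 13.5% and 16.6% of all genes. Vcam1, Cd44 and Vim are also expressed by endothelial, blood or stromal cells.

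Markers of other cells moved with these genes. In bulk kidney RNA, more cells of a type and more RNA per cell cannot be told apart. The summed level of 11 macrophage markers was 242 and 302 FPKM in KO_IR, 574 and 556 FPKM in WT_IR, 71.9 and 109 FPKM in KO and 55.4 and 59.1 FPKM in WT kidneys. All 11 were higher in WT_IR minus WT, and 9 were lower in KO_IR minus WT_IR, beside 19.1% and 13.5% of all genes. For 9 fibroblast and pericyte markers the sum was 110 and 114 FPKM in KO_IR, 296 and 269 FPKM in WT_IR, 22.8 and 28.6 FPKM in KO and 16.5 and 22.7 FPKM in WT kidneys. All 9 were higher in WT_IR minus WT, and 6 were lower in KO_IR minus WT_IR, beside the same shares of all genes.

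The tubular and cycling markers moved as well. For 9 markers of the proximal tubule, the segment most exposed to ischemia, the sum was 2654 and 2435 FPKM in KO_IR, 748 and 509 FPKM in WT_IR, 3026 and 2931 FPKM in KO and 2766 and 2341 FPKM in WT kidneys. All 9 were lower in WT_IR minus WT and higher in KO_IR minus WT_IR, beside 23.2% and 16.6% of all genes. Lower levels were not particular to the proximal tubule. All 4 distal convoluted tubule markers were lower in WT_IR minus WT, with a median of -2.94 against -1.93 for the proximal tubule. So were 3 of 4 thick ascending limb, 4 of 6 intercalated cell and 2 of 5 principal cell markers tested. Higher in KO_IR minus WT_IR were 3, 2, 3 and 1 of these markers, in the same order. The sum of 5 markers of proliferating cells was 13.3 and 10.1 FPKM in KO_IR, 33.5 and 34.5 FPKM in WT_IR, 1.77 and 2.86 FPKM in KO and 9.94 and 10.3 FPKM in WT kidneys. The genotypes differed without IR too, with 2 of the 5 lower in KO minus WT, beside 0.0577% of all genes. All 5 were higher in WT_IR minus WT and lower in KO_IR minus WT_IR, beside 19.1% and 13.5% of all genes. In the interaction 0 were called, beside 16.3% of all genes. T and NK cell markers summed to 4.18 and 7.15 FPKM in KO_IR and 12.4 and 18.4 FPKM in WT_IR kidneys. Of the 5 tested, 5 were higher in WT_IR minus WT and 3 were lower in KO_IR minus WT_IR, beside 19.1% and 13.5% of all genes. Neutrophil markers summed to 5.16 and 4.51 FPKM in KO_IR, 18.0 and 12.3 FPKM in WT_IR, 5.16 and 6.44 FPKM in KO and 6.58 and 3.90 FPKM in WT kidneys. Of the 5 neutrophil markers tested, 3 were higher in WT_IR minus WT and 3 were lower in KO_IR minus WT_IR, beside the same shares of all genes. The defining marker Ly6g was at 0 in WT_IR and KO and did not exceed 0.068 FPKM in any library. In the macrophage and fibroblast sums KO_IR lay between WT_IR and the uninjured groups, and the part of these markers in the levels of Sox9, Sox4, Cd24a, Klf6, Myc, Pax8 and Lhx1 was not tested.

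The scaling of the libraries bears on the direction of small differences. The deposited values of the WT_IR libraries contain a scaling that differs from the gene total by a factor of 1.18 and 1.19, against 0.921 to 1.03 in the other libraries. On a TPM scale the median of all genes moved by 0.45 (log2) in WT_IR minus WT and by -0.33 in KO_IR minus WT_IR, and with voom by 0.35 and -0.25. Relative to the median of all genes, Sox4 was at 2.06 in WT_IR minus WT on a TPM scale and at 2.14 with voom. Pax8 was at 0.47 and 0.44, Lhx1 at -1.53 and -1.64, and Prom1 at -0.08 and -0.13 in the same order of scalings. Pax2 was at -0.28 and -0.33. In KO_IR minus WT_IR, Pax2 was at 0.15 and 0.18 and Prom1 at 0.045 and 0.075 relative to the median. Sox9, Sox4, Klf6, Myc, Cd24a, Pax8 and Lhx1 thus kept their direction in both comparisons as fitted, while Pax2 and Prom1 changed sign as fitted but not relative to the median of all genes.

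**Figure D4:**
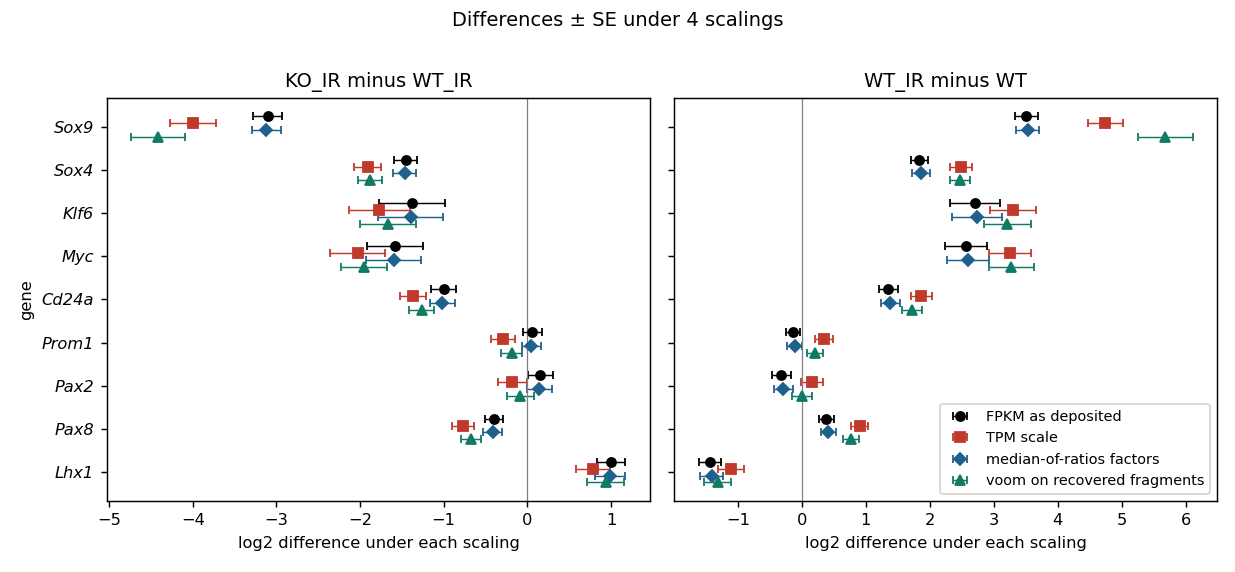
Log2 differences with SE (horizontal axes) of the 9 genes in the comparisons named above the panels, under 4 scalings of the libraries. Sox9, Sox4, Klf6, Myc, Cd24a and Pax8 stay above 0 in WT_IR minus WT and below 0 in KO_IR minus WT_IR under every scaling, Lhx1 does the opposite, and Pax2 and Prom1 cross 0 where the median of all genes moves as well.

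The genes whose levels followed each member most closely were found by Pearson's r of log2(FPKM + 1) over the 8 libraries among the 9862 protein-coding genes that averaged 2 FPKM or more. These r values describe libraries that share 4 groups and carry no test. For Sox9 they were Tspan14 (0.997), Ywhag (0.997) and Dync1li2 (0.995), and for Sox4 they were Tlr2 (0.999), Tubb2b and Litaf (both 0.996). Tlr2, a receptor of innate immunity, had 2.76 and 2.57 FPKM in KO_IR and 20.6 and 24.2 FPKM in WT_IR kidneys. For Klf6 they were the cytokine gene Lif (0.993), the immediate early gene Junb (0.992) and Ifrd1 (0.990), and for Myc they were the AP-1 member Fosl2 (0.995), Ptpn2 (0.993) and Tnfrsf12a (0.990). For Cd24a they were Chrnb1 (0.996), Elmsan1 and Sipa1 (both 0.992), and for Lhx1 they were Pptc7, Arfgef2 and Pias2 (each 0.991). Pax8 was closest to Aldh18a1 (0.974), Arhgef2 and Iqgap1 (both 0.972), and Pax2 to Phlpp1 (0.968), Abca2 (0.964) and Dnm2 (0.957). Prom1 had the lowest closest values of the 9 genes, Eipr1 (0.915), Zfp629 (0.912) and Lipt2 (0.889).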

How the data were processed

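The authors deposited FPKM values for 54251 genes in 8 libraries of polyadenylated RNA, 2 for each of 4 groups, and each library pools 3 mice per the labels. Alignment was with HISAT2 2.0.5 to mm10 (GRCm38.p6), per the submitters' processing notes, and the counting tool is not given in the sources used here. In each library all values times gene length were whole multiples of the worth of 1 fragment (100% of genes, tolerance 1e-06), which gave the fragments. Floors of 3 fragments cover counting error only.

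The 15607 genes that averaged 0.5 FPKM or more were fitted on log2(FPKM + 1) with limma 3.58.1 in R 4.3.3. All 8 libraries entered 1 fit with a mean for each group and a trend of variance on mean. The fit has 4 residual degrees of freedom and 3.04 from the prior. P-values were adjusted by Benjamini-Hochberg over all genes tested in each comparison (threshold 0.05, any fold). IR was compared within each genotype, the genotypes were compared within each treatment, and the interaction is (KO_IR minus KO) minus (WT_IR minus WT). The procedure was also run on simulated counts with the same spread setting for every gene, so that run does not speak for the calls made here.

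The 9 genes, the pathway lists and the marker lists were chosen with earlier results of these data known, and their counts are descriptions. From each pathway list up to 4 genes with the smallest p in WT_IR minus WT and in KO_IR minus WT_IR are named. Alternatives were other pseudocounts (0.1, 5), other minimum means (none, 5 FPKM), other scalings (TPM, median-of-ratios factors), voom on recovered fragments, the 2 groups of a comparison alone, the replicate number as a block, and leaving out each library.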

Additional observations from a re-analysis of the deposited data

Results flagged for a closer look

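By the interaction test of limma at an adjusted p under 0.05, 4 of the 9 genes and 16 named genes of their pathway lists were called, beside 16.3% of all genes. The 16 were named for a small p in WT_IR minus WT or KO_IR minus WT_IR. Those comparisons share libraries with the interaction, so the 16 calls are a description. Whole lists had 0 of 6 SOX, 2 of 10 LIM, 3 of 13 KLF and 2 of 12 MYC network genes called. They also had 3 of 22 MYC targets, 3 of 35 nephron development genes and 5 of 13 genes of dedifferentiated cells called. A negative value means a lower IR effect in the knockout than in wild type. Among the 9 genes it was -3.13 for Sox9, -1.42 for Sox4, -1.13 for Cd24a and 1.15 for Lhx1. Among the LIM cofactors and KLF genes it was -0.77 for Ssbp4, 0.75 for Lmo4, 0.84 for Klf1, -1.11 for Klf4 and 1.88 for Klf15. In the MYC lists it was 0.63 for Mlx, -1.27 for Mycl, 1.15 for Odc1 and 0.48 for Ldha. Among nephron development genes it was 0.86 for Lgr4 and 1.13 for Bmp7. Among genes of dedifferentiated tubular cells it was -2.62 for Cd44, -3.25 for Vcam1, -1.61 for Anxa3, -1.16 for Vim and 0.89 for Prom2. Of the 16 list genes, the calls of Odc1, Cd44, Vcam1 and Anxa3 held in all alternatives, and each of the other 12 ended in at least 1. Groups of 2 libraries are too small for a test of single samples that stand apart.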

How the results depend on the processing

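Over the alternatives, 680 of 751 values of the 9 genes kept their direction and their side of the threshold, 28 lost a call, 13 gained one and 30 changed sign. Of 1239 values of named list genes and Ehmt2 that were called, 1045 kept both, 190 lost the call and 4 changed sign.

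Members called in the interaction numbered 4, against 7 with voom. Of all genes, 6596 were called in WT_IR minus WT, against 4234 with a minimum mean of 5 FPKM. In KO_IR minus KO the count was 160, against 35 with no filter, 255 on a TPM scale, 370 with voom and 0 with only the 2 groups. In KO minus WT it was 34, against 7 with a pseudocount of 5, 19 with no filter, 16 with a minimum mean of 5 FPKM, 67 with voom and 0 with only the 2 groups. In KO_IR minus WT_IR it was 4689, against 7349 on a TPM scale, and in the interaction 2544, against 1670 with no filter and 4528 on a TPM scale. Leaving out 1 library gave 6 to 7 members and 4781 to 6554 genes in WT_IR minus WT, 0 to 2 members and 0 to 109 genes in KO_IR minus KO, 0 members and 0 to 17 genes in KO minus WT, 4 to 6 members and 2612 to 4557 genes in KO_IR minus WT_IR, and 2 to 6 members and 1289 to 2315 genes in the interaction. The cause was not tested.

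Differences that changed sign on a TPM scale were KO minus WT of Sox4 (0.037), Pax8 (0.024), Klf6 (0.018) and Myc (0.0034), WT_IR minus WT of Pax2 (0.15), Prom1 (0.35), Sox13 (0.16) and Ldha (0.069), KO_IR minus WT_IR of Pax2 (-0.18), Prom1 (-0.29) and Lgr4 (-0.022), and the interaction of Prom1 (-0.23). With voom they were WT_IR minus WT of Pax2 (0.0020), Prom1 (0.20) and Sox13 (0.013), KO_IR minus WT_IR of Pax2 (-0.082) and Prom1 (-0.19), and the interaction of Prom1 (-0.078). Leaving out 1 library, ranges that crossed 0 were, in KO minus WT, -0.16 to 0.20 for Sox9, -0.24 to 0.18 for Sox4, -0.15 to 0.046 for Pax8, -0.35 to 0.058 for Lhx1, -0.065 to 0.32 for Cd24a and -0.27 to 0.15 for Myc, in KO_IR minus KO -0.060 to 0.14 for Pax8 and -0.096 to 0.19 for Prom1, in KO_IR minus WT_IR -0.012 to 0.33 for Pax2 and -0.085 to 0.21 for Prom1, and in the interaction -0.26 to 0.074 for Pax2. The TPM scale and voom also move the median of all genes, and relative to it Pax2, Prom1, Sox13, Ldha and Lgr4 kept their sign in these comparisons. Between 9 and 17 nephron development genes and 8 and 12 genes of dedifferentiated cells were called in WT_IR minus WT over the alternatives.

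The deviations of libraries with the same replicate number correlated at -0.12 to 0.16 between groups. With 2 libraries a group, such values cannot show whether the numbers pair the libraries, and the main fit did not treat them as pairs. With the replicate number as a block, members called numbered 7 in WT_IR minus WT, 6 in KO_IR minus WT_IR (Pax8 was lost, adjusted p = 0.0510 in limma), 4 in the interaction and 0 in the other comparisons, and KO minus WT had 9 genes called. Each group has 2 libraries of pooled RNA, so the spread between single mice is not seen, and Sox9 rests on 14 to 58 fragments a library outside WT_IR.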
